A study of Homo sapiens with 66 samples.

Results

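The 9 genes described here encode the catalytic subunit of telomerase (TERT), 2 proteins of the telomerase particle (DKC1 and WRAP53) and the 6 subunits of shelterin (TERF1, TERF2, TERF2IP, TINF2, POT1 and ACD). They were taken by symbol from the 57992 gene identifiers analysed, and all 9 were found and passed the filter on low counts in every cell line. The set was chosen by the measured TERT change, which was lower after etoposide in most cell lines, so the etoposide contrast of TERT is given as levels and log2 fold changes with no test, while the other 8 genes were tested. The data were RNA-seq counts from 66 libraries of 11 acute myeloid leukemia (AML) cell lines: F36P, HL60, KASUMI1, MOLM13, MONOMAC6, MV411, NB4, NOMO1, OCIAML2, OCIAML3 and THP1. Each line was left untreated, with medium as the vehicle, or was given etoposide for 24 hours at the IC50 of that line. Etoposide is a topoisomerase II poison that leaves DNA double strand breaks. There were 3 libraries in each of the 22 groups, each made from 3 pooled wells, and each line is a single established culture. The dose therefore differed between lines, and the paper found F36P the least and OCIAML2 the most sensitive to etoposide. A difference in response between lines thus cannot be told apart from a difference in dose. The p-values within a line measure the spread between these libraries, which the labels do not place in separate cultures.

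Telomerase adds the telomeric repeat to chromosome ends and so offsets the loss of sequence at each round of replication. Its reverse transcriptase, TERT, copies a template in the telomerase RNA, TERC, which is stabilised by an H/ACA ribonucleoprotein of dyskerin (DKC1), NHP2, NOP10 and GAR1, and WRAP53 (TCAB1) brings the particle to Cajal bodies and telomeres. Shelterin covers the double-stranded repeat through TERF1 and TERF2, binds the single-stranded overhang through POT1, and joins these parts through TINF2 and ACD (TPP1), while TERF2IP (RAP1) sits on TERF2. Most somatic cells silence TERT, whereas leukemic blasts and their cell lines express it.

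The genes lie at separate loci of GRCh38 (gencode release 44 coordinates). TERT spans chr5:1253147-1295068 on the minus strand, DKC1 chrX:154762742-154777689 on the plus strand and WRAP53 chr17:7686071-7703502 on the plus strand. Among the shelterin genes, TERF2 lies at chr16:69355567-69408571, TERF2IP at chr16:75647773-75761872, ACD at chr16:67657512-67660810, TINF2 at chr14:24238286-24242663 and POT1 at chr7:124822386-124929983. TINF2 shares 957 exonic bases with GMPR2 on the opposite strand, and WRAP53 also has an antisense overlap. The libraries were made with a stranded kit, but the sources do not state which strand setting the counts use, so reads of WRAP53 and TINF2 within those bases cannot be assigned with certainty. TERF1 has 7 annotated pseudogenes, and DKC1 overlaps the small RNA genes SNORA36A, SNORA56 and MIR664B on its own strand.

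The promoters of TERT, DKC1 and ACD are shown because TERT and DKC1 had the lowest median log2 fold changes after etoposide among the members, while ACD was the shelterin gene that most often rose. Each run is the 250 bases before the RefSeq start of the gene (GRCh38.p14), 5′ to 3′ on the strand of the gene. Capitals mark the E-box CACGTG, which MYC and MAX proteins bind, and the GC box GGGCGG or its reverse complement CCGCCC, which SP1 family proteins bind.
TERT: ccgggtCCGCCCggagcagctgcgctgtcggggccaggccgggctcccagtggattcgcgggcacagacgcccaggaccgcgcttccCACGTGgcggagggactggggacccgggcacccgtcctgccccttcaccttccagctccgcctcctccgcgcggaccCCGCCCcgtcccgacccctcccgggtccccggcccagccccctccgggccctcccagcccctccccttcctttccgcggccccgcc
DKC1: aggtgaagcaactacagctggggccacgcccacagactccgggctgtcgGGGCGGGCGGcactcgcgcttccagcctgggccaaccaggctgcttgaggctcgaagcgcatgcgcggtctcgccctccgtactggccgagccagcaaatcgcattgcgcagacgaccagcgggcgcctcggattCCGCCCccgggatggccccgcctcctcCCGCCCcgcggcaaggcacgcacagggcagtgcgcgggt
ACD: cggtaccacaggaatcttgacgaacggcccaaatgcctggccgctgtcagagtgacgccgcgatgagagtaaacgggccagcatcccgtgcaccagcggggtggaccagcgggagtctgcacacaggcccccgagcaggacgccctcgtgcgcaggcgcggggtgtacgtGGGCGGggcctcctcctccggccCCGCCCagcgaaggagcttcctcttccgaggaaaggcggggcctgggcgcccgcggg
The TERT run (chr5:1295069-1295318) holds 1 E-box, which begins 163 bases before the start, and 2 GC boxes. The DKC1 run (chrX:154762614-154762863) holds 4 GC boxes, of which the first 2 overlap, and the ACD run (chr16:67660261-67660510) holds 2, with no CACGTG in either. The RefSeq start of TERT matches the gencode span given above, while those of DKC1 and ACD differ from theirs. The ACD run lies inside the gencode span of ACD, and the DKC1 run overlaps that of DKC1. CACGTG occurs in 6.35% and a GC box in 42.6% of the 35116 promoter runs of this length, both strands searched. Of the 10 runs that RefSeq gave for 7 of the members, the TERT run was the 1 with CACGTG. TERF1 and TERF2 had no entry.

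The libraries held 17997404 to 24101670 reads on genes, with a median of 20241014. Of 8 markers of blood and myeloid cells, PTPRC, CD33, SPI1 and LYZ were above 1 CPM (reads on the gene scaled to a common library total) in all 11 untreated lines and the other 4 in 2 (CD34) to 10 lines, and the fibroblast genes COL1A1, COL1A2 and DCN did not exceed 1.42 CPM. The erythroid genes HBG2 and ALAS2 passed 1 CPM in F36P alone, and GATA1 and KLF1 in 3 lines each. Among markers of other cell types, the highest levels were those of the T cell gene CD3D in NOMO1 (156 CPM) and of the epithelial genes EPCAM in KASUMI1 (81.9 CPM), CDH1 in F36P (26.6 CPM) and KRT8 in NOMO1 (21.6 CPM). The study set aside the etoposide libraries of OCIAML2 because their raw reads failed its quality control. In OCIAML2 the comparison passed the false discovery rate (FDR) for 3 of 13604 genes, namely CDKN1A, MDM2 and ZMAT3, all higher and all on the damage response list, and 456 genes had an unadjusted p below 0.05. OCIAML2 is therefore given apart, and statements over lines rest on the other 10 lines and their 60 libraries.

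TERT transcripts were lower after etoposide in 9 of the 10 lines, at 0.174 to 0.463 times the untreated mean, and in those 9 lines no etoposide library reached the lowest untreated one. HL60 was the exception. Values are CPM within each line, scaled by TMM, and the log2 fold change is from the edgeR quasi-likelihood fit.

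The difference was largest in F36P, where the untreated libraries had 10.5, 10.3 and 8.68 CPM and the etoposide libraries 1.70, 2.22 and 1.21 CPM, a log2 fold change of -2.52 ± 0.22 (SE, n = 3 per group). MONOMAC6, the line with the least TERT before treatment, went from 3.42, 3.68 and 2.80 CPM to 0.535, 0.558 and 0.786 CPM (log2 fold change -2.38 ± 0.22, SE). NOMO1 had 5.65, 5.56 and 6.27 CPM untreated and 0.746, 1.15 and 1.77 CPM with etoposide (-2.25 ± 0.24, SE). These 3 lines had 42 to 105 TERT reads in their 3 etoposide libraries together, so the treated levels there rest on few reads. KASUMI1 followed, with 14.1, 16.0 and 14.6 CPM against 3.93, 4.67 and 4.05 CPM (-1.82 ± 0.12, SE). MOLM13 showed 11.2, 10.98 and 9.46 CPM without and 3.48, 4.12 and 3.28 CPM with etoposide (-1.54 ± 0.14, SE). In KASUMI1 and MOLM13 the treated libraries lay close to each other, while those of NOMO1 ranged widely.

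The treated libraries of THP1 and MV411 were also widely spread. THP1 gave 15.8, 15.2 and 14.6 CPM untreated and 5.20, 8.92 and 3.98 CPM treated (-1.34 ± 0.21, SE), and MV411 gave 14.5, 16.3 and 17.4 CPM against 4.36, 6.74 and 8.90 CPM (-1.27 ± 0.16, SE). NB4 had 27.4, 33.5 and 28.6 CPM and then 11.6, 13.5 and 11.3 CPM (-1.30 ± 0.12, SE). OCIAML3, the line richest in TERT, had 54.9, 54.4 and 53.4 CPM untreated and 23.6, 27.1 and 24.6 CPM after etoposide (-1.11 ± 0.08, SE), so its treated libraries still exceeded the untreated libraries of 7 of the other lines.

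HL60 libraries overlapped. They held 36.2, 46.6 and 43.7 CPM untreated and 45.7, 63.6 and 37.2 CPM with etoposide, a log2 fold change of 0.21 ± 0.16 (SE), and without the second etoposide library the value was -0.01. OCIAML2 libraries overlapped as well, at 10.2, 9.73 and 11.9 CPM against 9.81, 8.64 and 11.2 CPM (-0.11 ± 0.12, SE). Over all genes tested, libraries fully separated toward lower values in 27.1% of genes in F36P, 23.1% in HL60, 31.0% in KASUMI1, 32.1% in MOLM13, 32.5% in MONOMAC6, 32.7% in MV411, 30.5% in NB4, 28.6% in NOMO1, 24.6% in OCIAML3, 23.5% in THP1 and 3.56% in OCIAML2. A log2 fold change below -1 in at least 9 of the 10 lines occurred in 3 of the 10588 genes tested in every line. As TERT chose the set, these shares describe it and test nothing.

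**Figure D1:**
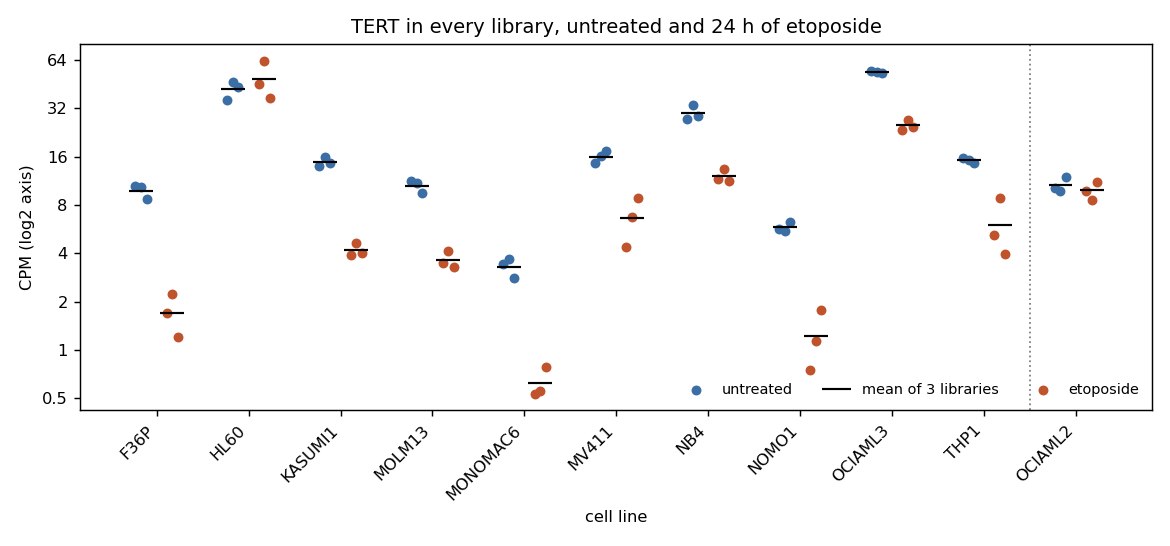
TERT in CPM (log2 axis) in each untreated (blue) and etoposide (orange) library by cell line, with the mean of 3 libraries as a bar and OCIAML2 set apart. In 9 lines every treated point lies under every untreated point, while HL60 and OCIAML2 overlap.

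Dyskerin transcripts fell in every one of the 10 lines. The treated mean was 0.415 (F36P) to 0.754 (HL60) times the untreated mean, the libraries did not overlap in any of the 10 lines, and the adjusted p ranged from 9.38e-12 (MV411) to 0.00367 (OCIAML3) by edgeR. The share of all genes tested that passed the FDR of 0.05 toward lower values was 25% in F36P, 15% in HL60, 28.6% in KASUMI1, 28.1% in MOLM13, 30.5% in MONOMAC6, 30.4% in MV411, 28.7% in NB4, 23.9% in NOMO1, 17.7% in OCIAML3 and 16% in THP1, and 1.77% of the genes tested in all 10 lines did so in every line. F36P had 236, 309 and 351 CPM untreated and 131, 131 and 109 CPM with etoposide, a log2 fold change of -1.27 ± 0.15 (SE, adjusted p = 7.15e-05). KASUMI1 had 243, 268 and 243 CPM against 119, 121 and 128 CPM (-1.04 ± 0.08, SE, adjusted p = 3.92e-06). In these 2 lines the fall passed the study's rule of an FDR below 0.05 with a change over 2-fold, which 6.67% of genes in F36P and 6.52% in KASUMI1 met toward lower values.

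The remaining lines fell by less. MV411 went from 301, 303 and 335 CPM to 173, 164 and 164 CPM (-0.91 ± 0.06, SE), and MOLM13 and MONOMAC6 both changed by -0.90. NB4, with the most dyskerin transcript, went from 436, 412 and 375 CPM to 258, 243 and 225 CPM (-0.75 ± 0.09, SE). NOMO1 changed by -0.73, OCIAML3 by -0.65 and THP1 by -0.51. HL60, where TERT was not lower, still fell from 300.3, 291 and 294 CPM to 225, 214 and 229 CPM (-0.41 ± 0.08, SE, adjusted p = 0.00186). OCIAML2 had 245, 259 and 280 CPM untreated and 249.9, 260.3 and 246 CPM treated, with overlapping libraries and an adjusted p of 0.998.

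**Figure D2:**
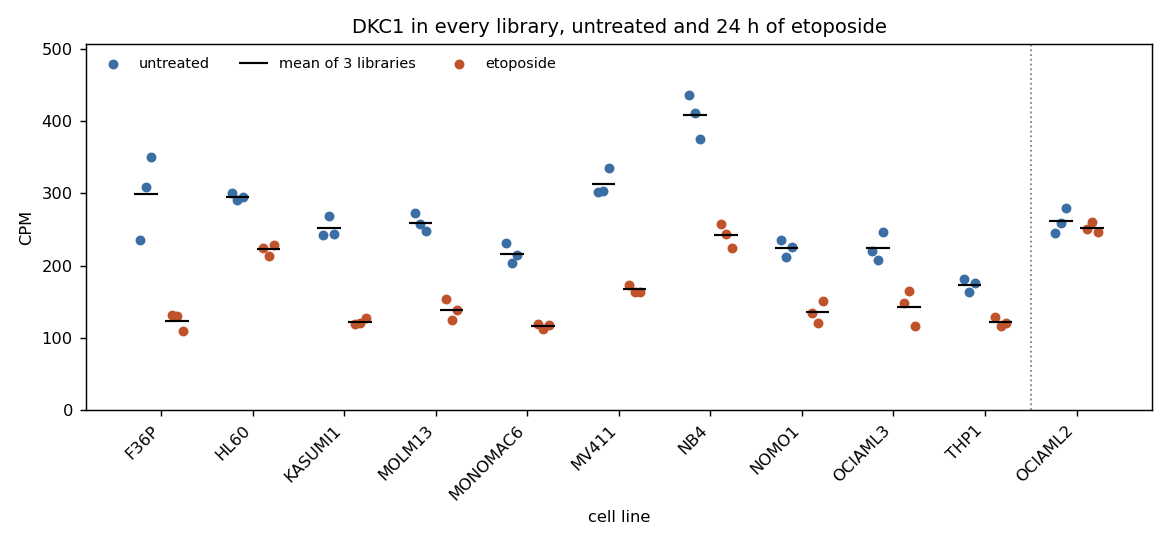
DKC1 in CPM in each untreated (blue) and etoposide (orange) library by cell line, with means of 3 libraries as bars and the axis from 0. Treated points lie under the untreated points in all 10 lines left of the dotted line and mix with them in OCIAML2.

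The other proteins of the H/ACA particle fell with dyskerin in most lines. GAR1 fell in 9 of 10 lines, NHP2 in 8 and NOP10 in 6, and none of the 3 rose in a line. Per line, 15% (HL60) to 30.5% (MONOMAC6) of all genes passed the FDR toward lower values. GAR1 went from 100.3 ± 5.81 CPM to 39.6 ± 1.61 CPM in F36P (SD, n = 3) and from 39.5 ± 1.95 to 28.1 ± 0.915 CPM in THP1, while in HL60 it gave 68.8 ± 4.97 and 59.7 ± 2.65 CPM, a change of -0.20 with an adjusted p of 0.116. NHP2 went from 131 ± 8.12 to 47.9 ± 8.0 CPM in KASUMI1. NOP10, the smallest subunit, changed least, from 145 ± 1.18 to 98.5 ± 4.69 CPM in NB4 and by 0.00 in NOMO1.

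Factors that assemble the particle followed. NAF1, which holds the place of GAR1 in the nascent particle, and SHQ1, a chaperone of dyskerin, each fell in 7 lines. The AAA+ ATPases RUVBL1 and RUVBL2 fell in 8 and 9 lines, with RUVBL1 at 224 ± 4.51 CPM untreated and 79.0 ± 5.26 CPM treated in F36P, but at 138 ± 9.97 and 137 ± 9.2 CPM in HL60. TEP1, a telomerase-associated protein of the vault particle, rose in 7 lines, while 16.1% (THP1) to 35% (F36P) of all genes rose per line. ZCCHC8 and NVL were lower in some lines and higher in others. Of the 11 genes of the telomerase biogenesis list that could be tested in each line, 8 fell in F36P, KASUMI1, MV411 and NB4 and 9 in MOLM13, against 2 in HL60 and 1 in THP1. The share of all genes that fell was 25% in F36P, 28.6% in KASUMI1, 30.4% in MV411, 28.7% in NB4 and 28.1% in MOLM13. It was 15% in HL60 and 16% in THP1. The list median was -0.92 in F36P, -0.12 in HL60 and -0.02 in THP1, beside medians over all genes of 0.09, -0.0049 and -0.03. TERC itself could not be assessed: it had at most 3 reads in any group of 3 libraries, which were prepared from mRNA, and it did not pass the filter.

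**Figure D3:**
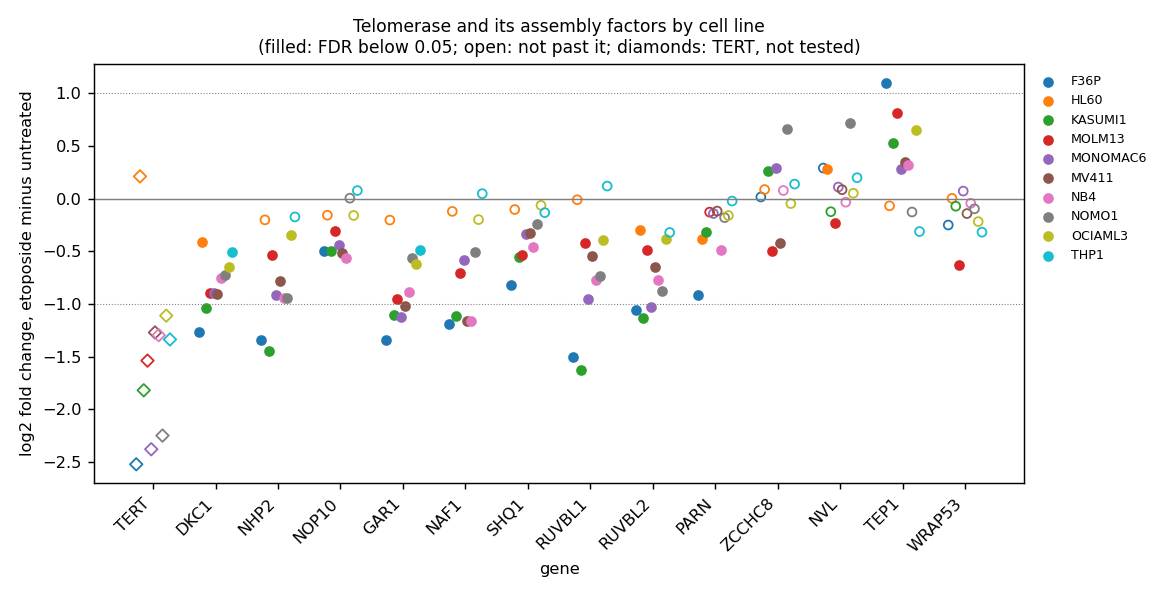
Log2 fold change (etoposide minus untreated) of telomerase, H/ACA and assembly genes, 1 point per cell line of 10, filled where the FDR was below 0.05 and open otherwise, with TERT as untested diamonds. DKC1 is filled and under 0 in all 10 lines, GAR1 and RUVBL2 in 9, and TEP1 lies mostly above 0.

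WRAP53 passed the FDR in 1 line. In MOLM13 it went from 28.8, 27.2 and 26.4 CPM to 16.1, 20.7 and 16.3 CPM, a log2 fold change of -0.63 ± 0.11 (SE, adjusted p = 0.000683), with no overlap. In the other 9 lines of the 10 the change ran from -0.32 (THP1, adjusted p = 0.115) to 0.07 (MONOMAC6, adjusted p = 0.495). The change was negative in 8 of the 10 lines. Libraries separated fully toward lower values in 5 (F36P, MOLM13, MV411, OCIAML3 and THP1), where 23.5% (THP1) to 32.7% (MV411) of all genes did so. Reads of WRAP53 within its antisense overlap could not be assigned with certainty.

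Shelterin transcripts changed by less, and in both directions. Over the 60 pairs of a shelterin gene and a line, 12 rose, 7 fell and 41 did not pass the FDR, and the log2 fold changes ran from -0.53 to 0.60, so none reached the study's 2-fold rule. Over all pairs of a gene and a line, 11.1% met that rule toward higher and 3.96% toward lower values. Genes passing the FDR toward higher values made up 35% of those tested in F36P, 17.5% in HL60, 31.5% in KASUMI1, 28.1% in MOLM13, 31.8% in MONOMAC6, 33.5% in MV411, 31.0% in NB4, 28.8% in NOMO1, 22.4% in OCIAML3 and 16.1% in THP1. Genes passing the FDR toward lower values made up 15% (HL60) to 30.5% (MONOMAC6) of those tested. Of the 19 pairs that passed, 7 higher and 3 lower did so in every one of the 14 alternative settings of processing and left-out libraries.

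**Figure D4:**
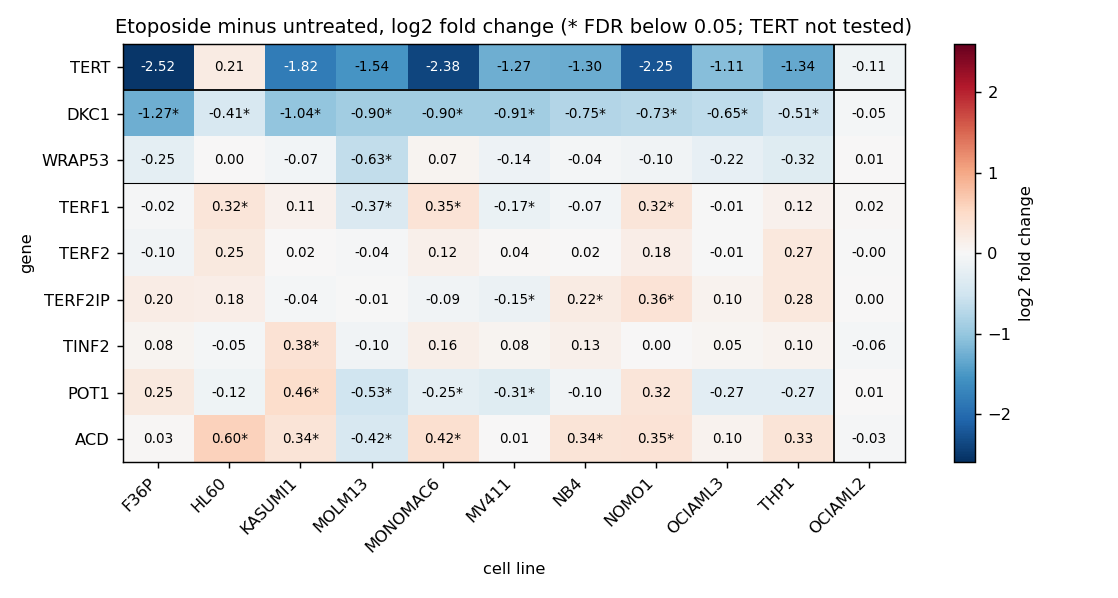
Log2 fold change (etoposide minus untreated) of the 9 genes in 11 lines, colour from blue (lower) to red (higher), with an asterisk where the FDR was below 0.05 and TERT not tested. The TERT and DKC1 rows are blue in 9 and 10 of the first 10 lines, and the shelterin rows mix pale blue and red.

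ACD, the bridge between TINF2 and POT1 that also recruits telomerase, rose in 5 lines and fell in 1. HL60 went from 40.8, 43.6 and 41.3 CPM to 55.1, 67.6 and 68.2 CPM (0.60 ± 0.11, SE, adjusted p = 0.000855). MONOMAC6, with the lowest ACD, went from 10.3, 12.7 and 13.5 CPM to 16.0, 17.2 and 15.8 CPM (0.42 ± 0.10, SE, adjusted p = 0.00371). NOMO1 (0.35), KASUMI1 (0.34) and NB4 (0.34) rose as well. KASUMI1 lost its call when the first untreated, the second etoposide or the third etoposide library was left out (adjusted p up to 0.119), and NB4 lost its call without the second etoposide library (adjusted p = 0.059). MOLM13 went the other way, from 33.4, 32.4 and 30.5 CPM to 21.6, 25.3 and 25.1 CPM (-0.42 ± 0.09, SE, adjusted p = 0.00243). An increase past the FDR in at least 5 lines was found for 21.1% of the 10588 genes tested in all 10 lines, so a count like that of ACD was common.

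TERF1, which binds the duplex repeat and limits telomere length, rose in MONOMAC6, NOMO1 and HL60 and fell in MOLM13 and MV411. MONOMAC6 went from 21.1, 21.6 and 20.2 CPM to 28.4, 25.1 and 26.9 CPM (0.35 ± 0.07, SE, adjusted p = 0.00119), and NOMO1 from 57.5, 50.5 and 53.6 CPM to 65.4, 69.5 and 67.3 CPM (0.32 ± 0.09, SE, adjusted p = 0.00715). MOLM13 showed the opposite, from 46.9, 46.6 and 47.2 CPM to 38.5, 34.7 and 35.7 CPM (-0.37 ± 0.07, SE, adjusted p = 0.00163). The HL60 call (0.32) was lost on leaving out any single library except the second etoposide one, with an adjusted p of up to 0.134. The MV411 change (-0.17) shrank to -0.04 when libraries were scaled by their size alone, and it lost its call without the first or second untreated or the second etoposide library (adjusted p up to 0.126).

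POT1, which binds the single-stranded overhang, fell in MOLM13, MV411 and MONOMAC6 and rose in KASUMI1. MOLM13 had 41.7, 42.3 and 45.1 CPM untreated and 35.4, 22.3 and 32.1 CPM treated (-0.53 ± 0.14, SE, adjusted p = 0.00967), the lowest change of any shelterin gene. MV411 (-0.31 ± 0.08, SE, adjusted p = 0.00164) and MONOMAC6 (-0.25 ± 0.06, SE, adjusted p = 0.004) changed by less. Both lost their calls in 1 joint fit of the 66 libraries (adjusted p = 0.26 and 0.287), and the MONOMAC6 change was -0.14 (adjusted p = 0.0723) with scaling by library size alone. KASUMI1 went from 25.3, 23.9 and 17.3 CPM to 29.5, 26.3 and 35.6 CPM (0.46 ± 0.16, SE, adjusted p = 0.0296) and lost its call without the third untreated or the third etoposide library (adjusted p up to 0.13). In F36P the untreated libraries ran from 22.1 to 54.3 CPM, so a change of this size was not detectable there.

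TERF2IP rose in NOMO1, from 108, 123 and 115 CPM to 150.1, 147 and 146 CPM (0.36 ± 0.08, SE, adjusted p = 0.00271). Its calls in NB4 (0.22) and MV411 (-0.15) were weak: the NB4 call was lost on leaving out any of the 6 libraries (adjusted p up to 0.128), and the MV411 call was lost without the first or the third untreated or the second or the third etoposide library (adjusted p up to 0.203). TINF2, the hub that joins TERF1, TERF2 and ACD, rose in KASUMI1 only, from 31.5, 31.9 and 33.8 CPM to 37.8, 46.2 and 42.4 CPM (0.38 ± 0.10, SE, adjusted p = 0.00746). TERF2, which folds the chromosome end into a loop, did not pass in any line, with changes from -0.10 (F36P) to 0.27 (THP1), although its HL60 libraries did not overlap (0.25, adjusted p = 0.0643), as in 22.9% of genes there toward higher values.

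Counted by line, MOLM13 had 5 of the 8 tested members lower (DKC1, WRAP53, POT1, ACD and TERF1) and none higher, with a median over the 8 of -0.40, where 28.1% of all genes were lower. MV411 had 4 lower and none higher (30.4% of all genes lower), and 2 of the 4, TERF1 and TERF2IP, were calls lost on leaving out 1 library. NOMO1 had 3 higher (TERF1, TERF2IP and ACD) and 1 lower (DKC1), and KASUMI1 had 3 higher (TINF2, POT1 and ACD) and 1 lower (DKC1), beside 28.8% and 31.5% of all genes higher, so these counts lay near the background. POT1 and ACD in KASUMI1 were calls lost on leaving out 1 library. F36P, OCIAML3 and THP1 had DKC1 as the only member that passed. OCIAML2 had none, where 3 genes of all those tested (0.0221%) passed the FDR. Whether a gene changed by different amounts in different lines was tested with the 9 interaction terms of line and treatment. This test passed for 7 of the 8 members, with adjusted p-values from 9.69e-06 (DKC1) to 0.0371 (TINF2), and not for TERF2 (adjusted p = 0.122). It passed for 74.5% of all genes, so a difference between lines was common among all genes. TINF2 lost its call on leaving out any 1 replicate number (adjusted p 0.103 to 0.443), WRAP53 without number 1 (0.128) and POT1 without number 2 (0.182), while TERF2 passed without number 3 (0.0155). With the replicate number as a block, TINF2 (adjusted p = 0.0902) and POT1 (adjusted p = 0.0691) did not pass.

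Over the 10 lines taken as replicates, DKC1 was the member whose mean change passed the FDR. Its mean log2 fold change was -0.78 ± 0.08 (SE, n = 10 lines, limma adjusted p = 8.75e-05), a test that 13.6% of 19974 genes passed toward lower values and 21.6% toward higher, 35.2% in all. TERT had a mean of -1.49 with an SD of 0.77 over the lines, given with no test. ACD averaged 0.24 ± 0.09 (SE, limma adjusted p = 0.0569), and its adjusted p ranged from 0.0114 to 0.146 over 19 alternatives, 5 of which passed, the lowest of them without MOLM13. WRAP53 averaged -0.14 and the other shelterin genes -0.06 (POT1) to 0.13 (TERF2IP), with adjusted p-values from 0.116 to 0.685. The sign for POT1 turned when libraries were scaled by size alone (0.02). The median of all genes was 0.12, and 0.18 with scaling by library size. Relative to that shift TERF2 (0.18) and TERF2IP (0.21), whose means passed under this scaling, stood near the centre.

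The H/ACA and assembly genes were averaged in the same way. GAR1 averaged -0.80 ± 0.10 (SE, limma adjusted p = 0.000231), NHP2 -0.74 ± 0.13 (adjusted p = 0.00108) and NOP10 -0.28 ± 0.07 (adjusted p = 0.0113), beside -0.78 for DKC1. RUVBL2 averaged -0.68, RUVBL1 -0.66, NAF1 -0.64, SHQ1 -0.33 and PARN, a nuclease that trims TERC, -0.26, all past the FDR. TEP1 averaged 0.38 ± 0.13 (SE, limma adjusted p = 0.036), and lost its call without replicate number 1 and on leaving out F36P, KASUMI1, MOLM13, MONOMAC6, MV411, NB4 or OCIAML3. In all, 8 of the 11 tested genes of the list fell and 1 rose, with a list median of -0.33 beside 0.12 over all genes. Of all genes, 13.6% fell and 21.6% rose in this test.

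Genes known to act at the TERT promoter moved in both directions. MYC, which activates TERT through the E-box, fell in all 10 lines, from 845 to 62.6 CPM in F36P and from 1048 ± 71.6 to 712 ± 78.2 CPM (SD, n = 3) in HL60, with changes from -3.75 to -0.56. MXD1, which takes the place of MYC on MAX and represses, rose in all 10 lines by 0.39 (KASUMI1) to 2.11 (THP1). TFAP4, a helix-loop-helix factor and MYC target, fell in all 10 lines, from 42.6 ± 4.07 to 11.7 ± 0.393 CPM in F36P and from 42.9 ± 3.08 to 34.4 ± 2.89 CPM in HL60. By comparison, 1.77% of the genes tested in all lines fell in every line and 1.71% rose in every line. MAX itself averaged 0.04 (adjusted p = 0.691). Over the lines, 8 of the 18 listed factors fell (MYC -1.69, TFAP4 -1.05, WT1 -0.69, GABPB1 -0.36, MEN1 -0.35, CTCF -0.32, GABPA -0.26 and USF2 -0.25), 3 rose (MXD1 1.05, ETS1 0.91 and USF1 0.33) and 7 did not pass, with a list median of -0.17. For the same test 13.6% of all genes fell and 21.6% rose, and 5 of the 18 fell with scaling by library size alone. In OCIAML2 none of the 18 passed, and MYC had 647 ± 6.78 CPM untreated and 598 ± 39.6 CPM treated.

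Genes that replicate and process telomeres passed in numbers near the background of 13.6% lower and 21.6% higher. Of the 16 tested over the lines, PIF1, a helicase that strips telomerase from ends (-1.19 ± 0.22, SE, limma adjusted p = 0.00164), WRN, the Werner helicase (-0.48), and DAXX, a histone chaperone partner of ATRX (-0.37), fell, and ZBTB48, which binds the repeat (0.36), and CTC1, of the CST complex (0.19), rose. The number that rose was 1 with OCIAML2 added, without replicate number 1, 2 or 3, and without HL60, MONOMAC6, MV411, NB4, OCIAML3 or THP1, and 5 with scaling by library size alone. The list median was -0.0031. PIF1 fell in 9 lines and rose in NB4, from 35.7 ± 4.58 to 58.0 ± 7.75 CPM (SD, n = 3). TEN1 was not tested.

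Markers of proliferation and of the DNA damage response moved with the same treatment and bear on how the levels can be read. Of 10 proliferation genes, PLK1 (-0.76), CCNB1 (-0.57) and CCNA2 (-0.42) fell over the lines and MKI67 averaged -0.21 ± 0.19 (SE, limma adjusted p = 0.417), with a list median of -0.19. All 10 fell in MOLM13, where 28.1% of all genes fell. In KASUMI1 6 rose, beside 31.5% of all genes, and none fell. TERT was lower in both lines. The 10 damage response genes were those of the p53 response. Of these 8 rose, led by CDKN1A, the p21 inhibitor of cyclin-dependent kinases (3.31 ± 0.28, SE, limma adjusted p = 7.28e-05). Their list median was 1.05. For the test over lines, 13.6% of all genes fell and 21.6% rose. All 10 rose in MOLM13, MONOMAC6, MV411 and OCIAML3, against 3 of the 8 tested in NB4, where TERT was also lower. Of all genes, 28.1% rose in MOLM13, 31.8% in MONOMAC6, 33.5% in MV411, 22.4% in OCIAML3 and 31.0% in NB4. CDKN1A rose in HL60 as well, by 4.14, from 0.23 ± 0.052 to 4.16 ± 1.33 CPM, the lowest levels of any line. The part of these shifts in the TERT and DKC1 levels was not tested. In bulk RNA, fewer expressing cells and less transcript per cell cannot be told apart.

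Before treatment, TERT varied more between lines than any other member. On a scale set over the 33 untreated libraries, OCIAML3 had 53.8 ± 1.41 CPM (SD, n = 3), HL60 39.3, NB4 28.4, MV411 15.02, KASUMI1 14.9, THP1 14.8, MOLM13 10.99, OCIAML2 10.6, F36P 9.31, NOMO1 5.21 and MONOMAC6 3.17 ± 0.44 CPM, a range of 17-fold. Of the 10 neighbouring pairs in that order, 6 differed by edgeR. The order was set by TERT itself, so neighbours are its closest levels and this count cannot be compared with shares over all genes. MV411, KASUMI1 and THP1 could not be separated (adjusted p = 0.99 and 0.947), nor MOLM13 from OCIAML2 (adjusted p = 0.753) or OCIAML2 from F36P (adjusted p = 0.152). Of all genes, 67.0% differed between OCIAML3 and HL60, 59% between HL60 and NB4, 62% between NB4 and MV411, 67.3% between MV411 and KASUMI1, 72.5% between KASUMI1 and THP1, 64.5% between THP1 and MOLM13, 55.8% between MOLM13 and OCIAML2, 73.8% between OCIAML2 and F36P, 75.5% between F36P and NOMO1, 69.4% between NOMO1 and MONOMAC6 and 63.8% between the ends, OCIAML3 and MONOMAC6.

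Every other member spanned 1.56-fold (TINF2) to 3.56-fold (ACD) between its highest and lowest line, and 1 to 3 of its 10 neighbouring pairs differed. Over all 55 pairs of lines, 50.5% to 76.6% of all genes differed in a pair. Neighbours are the closest lines in the order of each gene's own level, so the count cannot be compared with that share. DKC1 was highest in NB4 (388 ± 31.0 CPM) and lowest in THP1 (169 ± 8.86 CPM), 2.30-fold. ACD stood out in MONOMAC6, at 11.7 ± 1.64 CPM against 22.1 ± 4.94 CPM in F36P, the next line (adjusted p = 1.71e-08). MONOMAC6 had the lowest mean in TERT, ACD, TERF2, TERF2IP and WRAP53. By edgeR it differed from the next line in TERT and ACD, but not in TERF2 (adjusted p = 0.143), TERF2IP (adjusted p = 0.0871) or WRAP53 (adjusted p = 0.563). WRAP53 was at 24.1 to 30.9 CPM in 7 lines, at 17.2 CPM in F36P and at 11.4 to 12.3 CPM in THP1, KASUMI1 and MONOMAC6. By edgeR, F36P differed from NB4 above it (adjusted p = 1.15e-05) and from THP1 below it (adjusted p = 1.92e-05). The F test between lines passed for all 9 members, as it did for 99.4% of genes.

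Per kilobase of the MANE transcript, DKC1 was the most abundant, with a median over lines of 106 CPM per kb. TERF2IP followed at 32.1, ACD at 22.1, TINF2 at 20.2, TERF2 at 14.7, WRAP53 at 14.0, POT1 at 11.4 and TERF1 at 9.05 CPM per kb. TERT was the scarcest at 3.66 CPM per kb, from 0.785 in MONOMAC6 to 13.3 in OCIAML3.

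**Figure D5:**
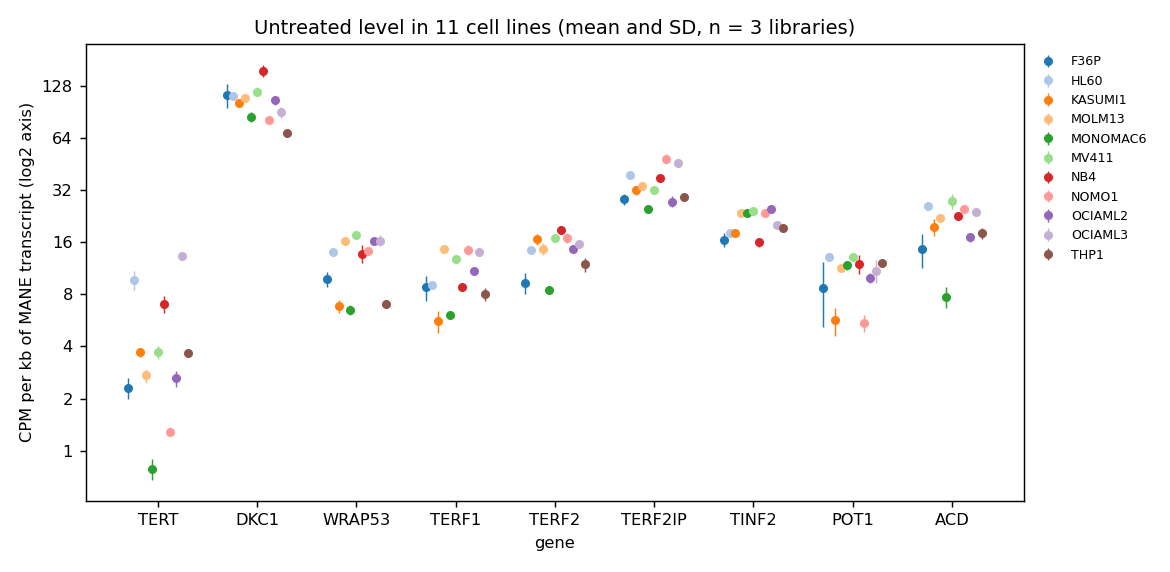
Untreated level of the 9 genes per kilobase of MANE transcript (CPM per kb, log2 axis), 1 point per cell line with the SD of 3 libraries. TERT spreads 17-fold over the lines, the others by 1.56-fold to 3.56-fold, and DKC1 lies highest.

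Across lines, the genes whose untreated level was most like that of TERT were DDX19B (r = 0.88), NOP9 (0.88), RPS2P32 (0.85), ZNF718 (0.85) and BMT2 (0.85), by Pearson r over 11 lines among 13668 genes above a 1 CPM mean. RPS2P32 is a pseudogene of a ribosomal protein gene, and its reads may belong to the parent gene. Among the members ACD had the highest r (0.65) and TINF2 the lowest (-0.49). For the change after etoposide, over 10 lines among 14080 genes, PUDP (0.94), PNMT (0.93), EIF2B1 (0.91), DAXX (0.91) and TFAP4 (0.90) had the highest r. DKC1 had r = 0.78 and Spearman rho = 0.76, which dropped to r = 0.42 without HL60 and F36P, the 2 lines farthest from the median change of TERT. Without these 2 lines TFAP4 had r = 0.82, and RUVBL2 went from 0.79 to 0.75. MYC went from 0.74 to 0.59 and GAR1 from 0.74 to 0.25. TFAP4 was picked for its high r among 14080 genes, so its r over the remaining lines is no independent test. The shelterin genes had r from -0.39 (POT1) to 0.46 (TERF2) and WRAP53 0.10. The lines share the treatment and the size of the total response, HL60 having 869 genes called and F36P 4923, and these values are descriptions over few points.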

How the data were processed

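RNA-seq counts were used from 66 libraries, 3 for each of 11 AML cell lines untreated or treated with etoposide for 24 h. The authors used STAR 2.5.3a, the GRCh38.p7 assembly and the gencode annotation (release 25), and deposited whole-number read counts per gene from its GeneCounts option, not normalized. Which strand column was deposited is not given in the sources used here. FastQC 0.11.5 and edgeR 3.20.1 are also in the submitters' processing notes. Each table held 58037 identifiers, of which 45 Y copies of pseudoautosomal genes, with 0 reads, were left out. Symbols matched 56948 of the remaining 57992.

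Groups came from the labels. Replicate libraries differed by more than sampling noise (chi-square per degree of freedom at least 2.05), so none was merged. Within each line edgeR 4.0.16 (R 4.3.3) was fitted with the quasi-likelihood test, filterByExpr (minimum count 10, total 15), TMM scaling and Benjamini-Hochberg adjustment over all genes tested. A gene passed at an FDR below 0.05, and was called, after the study's rule, when the change was also over 2-fold. The mean over 10 lines was tested with limma 3.58.1 on 1 log2 fold change per line (prior count 2). Line by treatment terms were tested over 60 libraries and untreated levels over 33. CPM per kb used the length of the MANE Select transcript. The fits within a line, over lines, of the line by treatment terms and of untreated levels were first tried on simulated counts.

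Named genes were the 9 members, genes of 5 lists and the 5 genes most like TERT in level and in change. Members and lists were chosen with earlier results of these data known, and the etoposide change of TERT is given with no test. PINX1 was left out because 2 identifiers share the symbol. The lists of telomerase biogenesis, telomere replication, TERT promoter factors, proliferation and DNA damage response (p53 response genes) were counted with no set test. Same-numbered libraries of a line deviated together in NB4 only (r = 0.265, 0.22 and 0.152), and in no other line were all 3 correlations over 0.1, so the main fits have no replicate block. Totals of 17997404 to 24101670 reads leave genes under about 1 CPM imprecise. Alternatives were RLE or library-size scaling, other filters, DESeq2 1.42.0, the edgeR exact test, 1 joint fit, the replicate block, other prior counts and left-out libraries or lines.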

Additional observations from a re-analysis of the deposited data

Results flagged for a closer look

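Among the 10 lines, KASUMI1 stood apart from the other 9 in the change of TINF2, with a log2 fold change of 0.42 (prior count 2), and the gap passed the 95% critical value of Dixon's test for 10 values. Chance flags about 1 in 20 such groups, and 8 genes were examined. The size of the etoposide change differed between lines by the F test of the interaction terms for TERF1 (adjusted p = 0.000431), TERF2IP (adjusted p = 6.48e-05), ACD (adjusted p = 9.81e-05), DKC1 (adjusted p = 9.69e-06) and WRAP53 (adjusted p = 0.00334), where 74.5% of all genes passed. WRAP53 did not pass without replicate number 1 (adjusted p = 0.128). TINF2 (adjusted p = 0.0371) and POT1 (adjusted p = 0.0153) passed as well, but not with the replicate block (0.0902 and 0.0691), and on leaving out a replicate number TINF2 rose to up to 0.443 and POT1 to 0.182. Of these genes, TERF1, POT1, ACD and TERF2IP had lines past the FDR in both directions.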

How the results depend on the processing

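DKC1 passed the FDR in 10 of 10 lines, and TERT was lower in 9 or 10 of 10, in every alternative run. Of 30 member and line pairs past the FDR, 21 stayed past it in all 14 alternatives. With scaling by library size alone, which moved the median log2 fold change from 0.09 to 0.34 in F36P and from 0.01 to 0.21 in NB4, pairs of members higher rose from 12 to 24 (all shelterin), shelterin pairs lower fell to 4 from 7, pairs called to 1 from 2, telomere replication pairs higher were 52 in place of 28, damage response pairs lower 0 in place of 3, and OCIAML2 had 5 genes past the FDR in place of 3. Over lines, this scaling gave 2 telomerase biogenesis genes higher, 5 telomere replication genes higher and 5 promoter factors lower, raised the share of higher calls from 61.3% to 72.7%, and turned the mean of POT1 to 0.025 from -0.056. Without a filter beyond 1 read, 9137 genes were called in F36P (4923 with it), 4738 in KASUMI1 (3016) and 1 in OCIAML2 (0), where 29 passed the FDR. A filter on a mean of 1 CPM left 1 pair called. OCIAML2 had 16 genes by DESeq2, 20 by the exact test and 20 with the replicate block, which changed no member call within a line but took the interaction of TINF2 to 0.0902 and of POT1 to 0.0691. A joint fit of 66 libraries called 4830 genes in KASUMI1, 1 pair, and 3 shelterin pairs lower. With 11 lines, 1 telomere replication gene was higher. Leaving out 1 library or line gave 1 to 45 genes in OCIAML2 (45 without the third etoposide library), 2813 to 4530 in HL60 (2813 without the third untreated library), 3 to 5 lines with ACD higher, 0 to 3 damage response pairs lower, 0 to 1 telomerase biogenesis genes higher, 1 to 3 telomere replication genes higher and 0 to 1 proliferation genes higher. TERT in HL60 ran from -0.011 (without the second etoposide library) to 0.39 (without the third). Apart from the settings named, the cause was not tested. Depth limits TERT most in MONOMAC6, with 42 reads in its etoposide libraries.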
